A study of Homo sapiens with 36 samples.

Results

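The 40 genes described here are immediate early genes and feedback genes of the ERK pathway, taken as a fixed list of symbols and matched to 40 of the 45478 Ensembl gene identifiers of a raw count table. They comprise 3 early growth response factors, 8 subunits of the AP-1 dimer family, 9 other early transcription factors, 7 immediate early response proteins, 7 MAP kinase phosphatases, 4 Sprouty and SPRED inhibitors and 2 ETS factors. RNA sequencing covered 36 libraries of 2 established human cell lines derived from clear cell renal carcinoma, A498 and 786-O. Each line entered as cells selected for growth in sunitinib, a drug against the receptor kinases of VEGF and PDGF, and as parental cells. Selection was stepwise and ended at a sunitinib dose of 2 µM for A498, while for 786-O it ended at 4 µM. Durvalumab, avelumab or atezolizumab, which are antibodies against PD-L1, was given to each of these 4 cell states over 24 h (10 mg/mL in the labels' own unit). The 12 groups held 3 libraries each, so the groups were durvalumab, avelumab and atezolizumab in A498 resistant, A498 parental, 786-O resistant and 786-O parental cells. All groups share exposure to an antibody, and untreated libraries were not analysed here. A gene said to rise or fall under 1 antibody is therefore only higher or lower than under the antibody it is compared with. The labels say neither whether a resistant line is 1 clone, nor whether sunitinib was present during the antibody treatment, nor that replicates are separate cultures. The p-values therefore cover only library-to-library spread, which may be technical.

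ERK is the last kinase of a cascade that runs from growth factor receptors through RAS, RAF and MEK. Immediate early genes are those transcribed within minutes of its activation without new protein synthesis, and many encode transcription factors. Other ERK targets close the loop: MAP kinase phosphatases (DUSP proteins) dephosphorylate ERK, p38 or JNK, while Sprouty and SPRED proteins restrain the pathway at the level of RAS and RAF. The pathway can lie downstream of the receptor kinases that sunitinib inhibits, and whether they feed it in these cells was not tested.

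Totals ran from 19994882 to 58122896 counts per library. PAX8, which marks renal epithelium, stood at 208 to 313 CPM (counts divided by the library's total and scaled to the usual CPM unit) over all libraries, while CA9, a hypoxia target often high in this tumour, reached at most 1.88 CPM. The leukocyte gene PTPRC did not exceed 0.0764 CPM. Each cell state carries a batch label of its own, so batch and resistance cannot be told apart. Each antibody comparison stays within a single batch label. The libraries labelled A498 resistant went against their label. HIF1A, which 786-O is known to lack in functional form, ranged from 8.40 to 9.73 CPM there, against 285 to 305 CPM in A498 parental, 7.92 to 9.24 CPM in 786-O resistant and 8.33 to 10.3 CPM in 786-O parental libraries. Over 20752 genes their mean profile correlated at r = 0.99 with that of 786-O resistant libraries, and at r = 0.884 with that of A498 parental libraries. The same held for the 40 genes: of the 38 that reached 1 CPM in some state, the libraries labelled A498 resistant lay nearest to 786-O resistant for 17, to 786-O parental for 16 and to A498 parental for 5. The median distance was 0.32 log2 units from 786-O resistant, 0.40 from 786-O parental and 0.72 from A498 parental, on the scale of log2(CPM + 0.1). These libraries are therefore called by their label, and every contrast between them and A498 parental rests on that label.

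Promoter windows of 29 of the 40 genes were found in RefSeq (build GRCh38.p14), each from 250 bases before to 50 bases after the first transcription start listed. They were searched on both strands for 5 motifs: the CArG box bound by SRF, the cyclic AMP response element TGACGTCA, the AP-1 site TGANTCA, the ETS site CCGGAA and the EGR site GCGNGGGCG. No match of 1 motif overlapped a match of another in these 29 windows. The sequences given are those of EGR1 and FOS, the members with the largest antibody differences, and DUSP1 and GADD45B, feedback and stress response members whose antibody difference depended on the cell state. Capitals mark only the matches described here: 2 CArG boxes in EGR1, beginning 105 and 83 bases before the start, 1 cyclic AMP response element in DUSP1, beginning 125 bases before it, and 1 EGR site in GADD45B, which lies on the opposite strand and begins 159 bases before it. An EGR site of EGR1, beginning 198 bases before the start, is left in lower case. The FOS window held none of the 5 motifs, and bases outside the windows were not searched, so sites further upstream would be missed.
EGR1, chr5:138465229-138465528, plus strand: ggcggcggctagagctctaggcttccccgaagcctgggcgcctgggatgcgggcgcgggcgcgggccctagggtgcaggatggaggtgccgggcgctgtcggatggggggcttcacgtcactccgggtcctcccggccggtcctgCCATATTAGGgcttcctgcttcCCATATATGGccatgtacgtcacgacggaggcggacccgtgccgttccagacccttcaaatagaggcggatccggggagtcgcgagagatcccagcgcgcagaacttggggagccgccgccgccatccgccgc
FOS, chr14:75278578-75278877, plus strand: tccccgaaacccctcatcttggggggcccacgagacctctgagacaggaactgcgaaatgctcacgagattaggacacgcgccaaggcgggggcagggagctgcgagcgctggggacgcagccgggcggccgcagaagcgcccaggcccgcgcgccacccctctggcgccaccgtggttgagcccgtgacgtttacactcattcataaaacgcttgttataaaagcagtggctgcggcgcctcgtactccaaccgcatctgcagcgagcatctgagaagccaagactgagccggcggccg
DUSP1, chr5:172771146-172771445, minus strand: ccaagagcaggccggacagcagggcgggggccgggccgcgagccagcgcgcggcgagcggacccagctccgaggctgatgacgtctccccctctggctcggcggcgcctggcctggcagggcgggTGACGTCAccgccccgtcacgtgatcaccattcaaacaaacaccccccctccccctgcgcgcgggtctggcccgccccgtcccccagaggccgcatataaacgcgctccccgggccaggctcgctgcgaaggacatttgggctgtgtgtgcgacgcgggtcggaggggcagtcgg
GADD45B, chr19:2475877-2476176, plus strand: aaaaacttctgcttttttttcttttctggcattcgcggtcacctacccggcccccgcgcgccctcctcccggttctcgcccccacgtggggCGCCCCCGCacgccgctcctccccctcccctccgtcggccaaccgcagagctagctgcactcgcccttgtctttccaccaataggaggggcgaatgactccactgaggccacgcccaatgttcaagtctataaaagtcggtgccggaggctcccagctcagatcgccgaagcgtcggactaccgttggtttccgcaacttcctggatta
A CArG box was found in 2 of the 29 windows (EGR1 and SRF, 6.9%), against 1.29% of all 27305 promoters of this length. EGR sites were in 9 windows (31.0%, against 9.28%), those of EGR1, DUSP2, GADD45B, KLF2, KLF4, KLF6, SPRY2, SPRY4 and SRF. The cyclic AMP response element was in 3 windows (10.3%, against 1.98%), the ETS site in 7 (24.1%, against 17.6%) and the AP-1 site in 1 (3.45%, against 7.76%). These are counts of letters, not of bound sites.

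Levels per kilobase of exonic length placed the AP-1 subunit FOSL1 highest of the 40 genes in 3 states, at 94.7 CPM per kb for A498 labelled as resistant, 98.1 for 786-O resistant and 138 for 786-O parental cells. In A498 parental libraries JUNB led with 81.4 CPM per kb and FOSL1 followed with 63.7. Low in this order were FOS and EGR1: FOS ranked between the 34th and 37th of 40, at 0.0616 to 0.388 CPM per kb, and EGR1 between the 24th and 33rd, at 0.955 to 3.25 CPM per kb. EGR3 held 10 counts in all 9 libraries labelled A498 resistant, 17 in A498 parental libraries, 5 in those of 786-O resistant cells and 6 in those of 786-O parental cells, and entered no test. DUSP2 could be tested between antibodies only in A498 parental cells, NR4A3 in all states but A498 parental, and FOS in all states but 786-O resistant, because of low counts. FOS held 8 to 9 counts per library under atezolizumab in 786-O parental cells, so its precision is low.

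EGR1 (ENSG00000120738.8, chromosome 5, 138465490 to 138469315), a zinc finger factor induced through SRF and ETS proteins, had the largest antibody differences of the 40 genes. Its mean was highest under avelumab in both 786-O states. In A498 parental cells its mean was highest under durvalumab, but no EGR1 difference passed there. In the libraries labelled A498 resistant its means under avelumab (11.08 CPM) and atezolizumab (10.75 CPM) were similar, and that under durvalumab was lowest. In 786-O resistant cells EGR1 had 6.10, 5.12 and 5.27 CPM under avelumab, against 2.00, 1.43 and 1.92 CPM under atezolizumab. Durvalumab libraries of the same cells had 1.90, 1.64 and 1.95 CPM. The avelumab libraries lay above all others, which did not separate. The log2 change was 1.58 ± 0.13 (SE) for avelumab minus atezolizumab (adjusted p = 8.82e-07 by edgeR) and -1.59 ± 0.13 for durvalumab minus avelumab (adjusted p = 1.09e-06). EGR1 was the gene of lowest p in durvalumab minus avelumab and the 3rd of 228 called genes in avelumab minus atezolizumab. Durvalumab minus atezolizumab gave -0.01 ± 0.16 (adjusted p = 0.993).

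In 786-O parental cells EGR1 had 13.1, 25.1 and 17.4 CPM under avelumab, against 2.67, 2.04 and 2.42 CPM under atezolizumab. Under durvalumab it had 4.59, 12.8 and 11.7 CPM. Atezolizumab libraries were lowest and avelumab libraries highest, with no overlap between any 2 groups. Of the 3 pairs, avelumab minus atezolizumab passed the test, at 2.97 ± 0.50 (adjusted p = 0.0308), and this was the largest log2 change of the 763 genes called there. Durvalumab minus atezolizumab gave 1.98 ± 0.55 (adjusted p = 0.172) and durvalumab minus avelumab -0.99 ± 0.39 (adjusted p = 0.454). The call was lost when any atezolizumab library, avelumab replicate 2 or 3, or durvalumab replicate 2 was left out, with log2 changes of 2.67 to 3.06 and adjusted p of 0.0501 to 0.112 in those fits.

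In A498 parental cells no EGR1 difference passed. Its levels were 6.95, 5.38 and 3.23 CPM under durvalumab, 4.38, 0.968 and 2.98 CPM under avelumab, and 1.02, 0.768 and 1.29 CPM under atezolizumab. Durvalumab libraries lay above the atezolizumab libraries without overlap, while 1 avelumab library lay inside the atezolizumab range. The change was 2.35 ± 0.62 for durvalumab minus atezolizumab (adjusted p = 0.137) and 1.43 ± 0.70 for avelumab minus atezolizumab (adjusted p = 0.382). The libraries labelled A498 resistant showed another order. They had 7.47, 8.21 and 7.72 CPM under durvalumab, 10.7, 11 and 11.5 CPM under avelumab, and 10.8, 10.9 and 10.5 CPM under atezolizumab. There EGR1 was lower under durvalumab than under avelumab (-0.51 ± 0.08, adjusted p = 0.0133), while durvalumab minus atezolizumab did not pass (-0.46 ± 0.08, adjusted p = 0.0704). The durvalumab minus avelumab call was lost without avelumab replicate 3 (adjusted p = 0.101), without durvalumab replicate 1 (adjusted p = 0.483) and in the fit over all 36 libraries (adjusted p = 0.851).

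**Figure D1:**
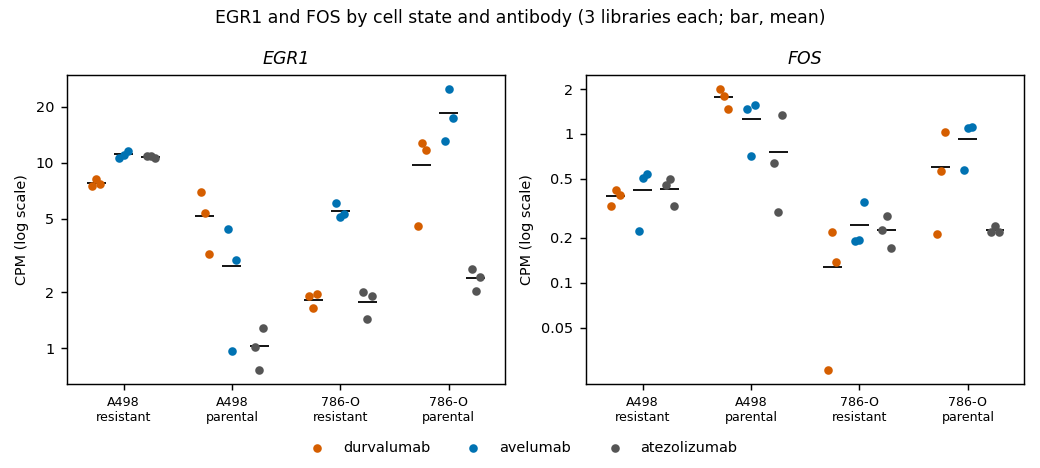
CPM of EGR1 (left) and FOS (right) on log axes in every library, by cell state and antibody; points are libraries, bars are means of 3. In 786-O resistant cells the 3 avelumab libraries had 5.12 to 6.10 CPM of EGR1, above every durvalumab and atezolizumab library of that state, and in 786-O parental cells the atezolizumab libraries had the lowest EGR1 values, 2.04 to 2.67 CPM.

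The related factor EGR2 stood at 0.0751 to 1.65 CPM over all libraries and passed in no antibody pair. EGR2 in 786-O resistant cells had 0.320, 0.269 and 0.250 CPM under avelumab, against 0.0751, 0.125 and 0.123 CPM under atezolizumab (1.35 ± 0.42, adjusted p = 0.126). The 2 groups did not overlap, but these values rest on 10 to 15 counts per avelumab library and 3 to 5 per atezolizumab library.

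FOS (ENSG00000170345.10, chromosome 14, 75278774 to 75282230), the founding AP-1 subunit, had 0.572, 1.10 and 1.11 CPM under avelumab in 786-O parental cells, against 0.221, 0.240 and 0.218 CPM under atezolizumab. Durvalumab libraries had 0.213, 0.562 and 1.03 CPM and spanned both groups. Avelumab minus atezolizumab was 2.05 ± 0.48 (adjusted p = 0.0331), on 19 to 64 counts per avelumab library and 8 to 9 per atezolizumab library. The call was lost without any 1 atezolizumab library, avelumab replicate 2 or 3, or durvalumab replicate 2 (adjusted p of 0.0643 to 0.154), and DESeq2 gave FOS no adjusted p. In A498 parental cells FOS had 2.02, 1.79 and 1.47 CPM under durvalumab, against 0.633, 0.301 and 1.35 CPM under atezolizumab, a difference that did not pass (1.17 ± 0.45, adjusted p = 0.265).

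Of the other AP-1 subunits, 2 passed in an antibody pair. FOSL1 (ENSG00000175592.9) was lower under avelumab in 786-O resistant cells, at 180, 162 and 163 CPM, against 197, 203 and 202 CPM under atezolizumab (-0.28 ± 0.05, adjusted p = 0.00243). Its durvalumab libraries lay between, at 189, 188 and 181 CPM, without passing against either antibody. JUNB (ENSG00000171223.6) fell under avelumab in A498 parental cells, to 133, 136 and 141 CPM, against 158, 150 and 148 CPM under atezolizumab (-0.16 ± 0.04, adjusted p = 0.0193). Avelumab and atezolizumab libraries did not overlap for either gene. The JUNB call was lost without atezolizumab replicate 1 or avelumab replicate 1 or 2 (adjusted p of 0.0587 to 0.12) and in the fit over all 36 libraries (adjusted p = 0.179). FOSB, FOSL2, JUN, JUND and the stress-induced factor ATF3 passed in no pair. FOSL2 in 786-O parental cells, for example, ranged only from 225 to 238 CPM over its 9 libraries.

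Among the other early transcription factors, 4 passed in at least 1 pair. KLF4, a zinc finger factor, rose in A498 parental cells under both other antibodies relative to atezolizumab. It had 41.1, 44.3 and 42.1 CPM under durvalumab, 40.5, 41.2 and 44.0 CPM under avelumab, and 38.2, 35.7 and 33.7 CPM under atezolizumab. All 6 durvalumab and avelumab libraries lay above the 3 atezolizumab libraries (durvalumab minus atezolizumab 0.23 ± 0.05, adjusted p = 0.00815, and avelumab minus atezolizumab 0.21 ± 0.05, adjusted p = 0.0132). Without atezolizumab replicate 3 both calls were lost (adjusted p = 0.11 and 0.128), and the avelumab call was also lost without avelumab replicate 2 (adjusted p = 0.0564) or 3 (adjusted p = 0.0589). SRF, the factor that binds CArG boxes, fell under avelumab in A498 parental cells, to 57.2, 53.9 and 52.2 CPM, against 59.3, 61.0 and 61.9 CPM under atezolizumab (-0.16 ± 0.04, adjusted p = 0.0279). That call was lost without atezolizumab replicate 2 or 3 or avelumab replicate 2 or 3 (adjusted p of 0.0681 to 0.142) and in the fit over all 36 libraries (adjusted p = 0.0506).

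In 786-O parental cells MYC and KLF2 rose under avelumab relative to atezolizumab. MYC had 117, 120 and 122 CPM under avelumab, against 104, 105 and 113 CPM under atezolizumab (0.15 ± 0.04, adjusted p = 0.0274). KLF2, a Krüppel-like factor known for its role in endothelium, had 5.36, 5.68 and 5.87 CPM under avelumab, against 3.80, 4.23 and 4.76 CPM under atezolizumab (0.39 ± 0.10, adjusted p = 0.0289). Neither pair of groups overlapped. Both calls were lost without atezolizumab replicate 1 or 2 or avelumab replicate 2 or 3 (adjusted p of 0.0924 to 0.15 for MYC and 0.0691 to 0.169 for KLF2). The MYC call was also lost without durvalumab replicate 2 (adjusted p = 0.0503), and DESeq2 gave 0.0598 for KLF2. KLF6, KLF10, NR4A1, NR4A2 and NR4A3 passed in no pair.

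GADD45B (ENSG00000099860.9, chromosome 19, 2476122 to 2478259), a stress response protein that acts on the p38 and JNK kinase cascades, changed in opposite directions in 2 states. In the libraries labelled A498 resistant it had 144, 139 and 143 CPM under durvalumab, 127, 120 and 124 CPM under avelumab, and 122, 122 and 118 CPM under atezolizumab. The durvalumab libraries were highest, above both other groups (durvalumab minus atezolizumab 0.24 ± 0.04, adjusted p = 0.00552, and durvalumab minus avelumab 0.20 ± 0.04, adjusted p = 0.0375). In 786-O parental cells it had 61.8, 58.2 and 58.6 CPM under durvalumab, 60.6, 59.9 and 59.9 CPM under avelumab, and 69.9, 68.2 and 74.1 CPM under atezolizumab. Here the atezolizumab libraries were highest (durvalumab minus atezolizumab -0.27 ± 0.04, adjusted p = 0.000608, and avelumab minus atezolizumab -0.25 ± 0.04, adjusted p = 0.000721). The 786-O parental calls held without any 1 library. In the libraries labelled A498 resistant the durvalumab minus atezolizumab call was lost without atezolizumab replicate 2 (adjusted p = 0.0582) or 3 (adjusted p = 0.246) or durvalumab replicate 1 (adjusted p = 0.101), and in the fit over all 36 libraries (adjusted p = 0.0963). The durvalumab minus avelumab call there held only without avelumab replicate 1 or durvalumab replicate 3 among the 9 fits that left out 1 library, was lost in the other 7 (adjusted p of 0.0825 to 0.552) and gave 0.348 in the fit over all 36 libraries.

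IER3, an early response protein linked to survival, fell under avelumab in 786-O resistant cells, to 52.6, 51.2 and 52.6 CPM, against 64.5, 63.4 and 63.3 CPM under atezolizumab (-0.31 ± 0.05, adjusted p = 0.00099). Durvalumab libraries had 56.3, 52.8 and 55.3 CPM, also below all atezolizumab libraries, without passing (-0.25 ± 0.05, adjusted p = 0.223). IER2, IER5, PHLDA1, the anti-apoptotic BCL2 family member MCL1 and the mRNA decay factor ZFP36 passed in no pair. MCL1 kept within 183 to 206 CPM in 786-O resistant and within 203 to 214 CPM in 786-O parental libraries.

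Of the 7 MAP kinase phosphatases, 4 passed in an antibody pair. DUSP1 (ENSG00000120129.6, chromosome 5, 172768090 to 172771195), a nuclear phosphatase that acts on p38, JNK and ERK, rose under durvalumab in A498 parental cells, to 60.4, 59.6 and 54.8 CPM, against 48.2, 50.2 and 47.9 CPM under atezolizumab (0.25 ± 0.05, adjusted p = 0.00439). In 786-O resistant cells DUSP1 was lower under avelumab, at 55.8, 51.4 and 52.9 CPM, against 69.3, 64.1 and 62.8 CPM under atezolizumab (-0.32 ± 0.05, adjusted p = 0.00324). Durvalumab libraries of these cells had 59.6, 54.7 and 59.0 CPM, also below all atezolizumab libraries, without passing. The 2 groups of each call did not overlap. The A498 parental call was lost without atezolizumab replicate 3 (adjusted p = 0.0501), without durvalumab replicate 1 (adjusted p = 0.0699) and in the fit over all 36 libraries (adjusted p = 0.0506), while that in 786-O resistant cells held without any 1 library. In 786-O parental cells DUSP1 had 62.8, 71.6 and 61.4 CPM under avelumab, against 53.0, 53.5 and 61.2 CPM under atezolizumab, without passing (0.22 ± 0.07, adjusted p = 0.0929).

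DUSP10 (ENSG00000143507.18, chromosome 1, 221701424 to 221742176), which acts on p38 and JNK, had the lowest p of the 40 genes in 786-O parental cells. It had 32.6, 32.8 and 31.8 CPM under durvalumab, 33.7, 35.7 and 34.0 CPM under avelumab, and 26.4, 27.8 and 25.5 CPM under atezolizumab. Atezolizumab libraries lay below the other 2 antibodies (avelumab minus atezolizumab 0.37 ± 0.05, adjusted p = 4.3e-05, and durvalumab minus atezolizumab 0.27 ± 0.05, adjusted p = 0.00211). DUSP6 (ENSG00000139318.8, chromosome 12, 89347232 to 89353271), a cytoplasmic phosphatase selective for ERK, rose under avelumab in the same cells, to 7.37, 8.55 and 8.43 CPM, against 5.35, 6.29 and 5.88 CPM under atezolizumab (0.48 ± 0.09, adjusted p = 0.00225). Durvalumab libraries had intermediate DUSP6 levels of 6.90, 6.67 and 7.36 CPM. The DUSP10 and DUSP6 calls held without any 1 library. DUSP8 rose under durvalumab in A498 parental cells, to 8.49, 8.77 and 8.09 CPM, against 7.25, 7.15 and 5.49 CPM under atezolizumab (0.35 ± 0.10, adjusted p = 0.0427). The DUSP8 call was lost without any 1 durvalumab library, atezolizumab replicate 3 or avelumab replicate 2 (adjusted p of 0.0506 to 0.359), in DESeq2 (adjusted p = 0.0903) and in the fit over all 36 libraries (adjusted p = 0.196).

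**Figure D2:**
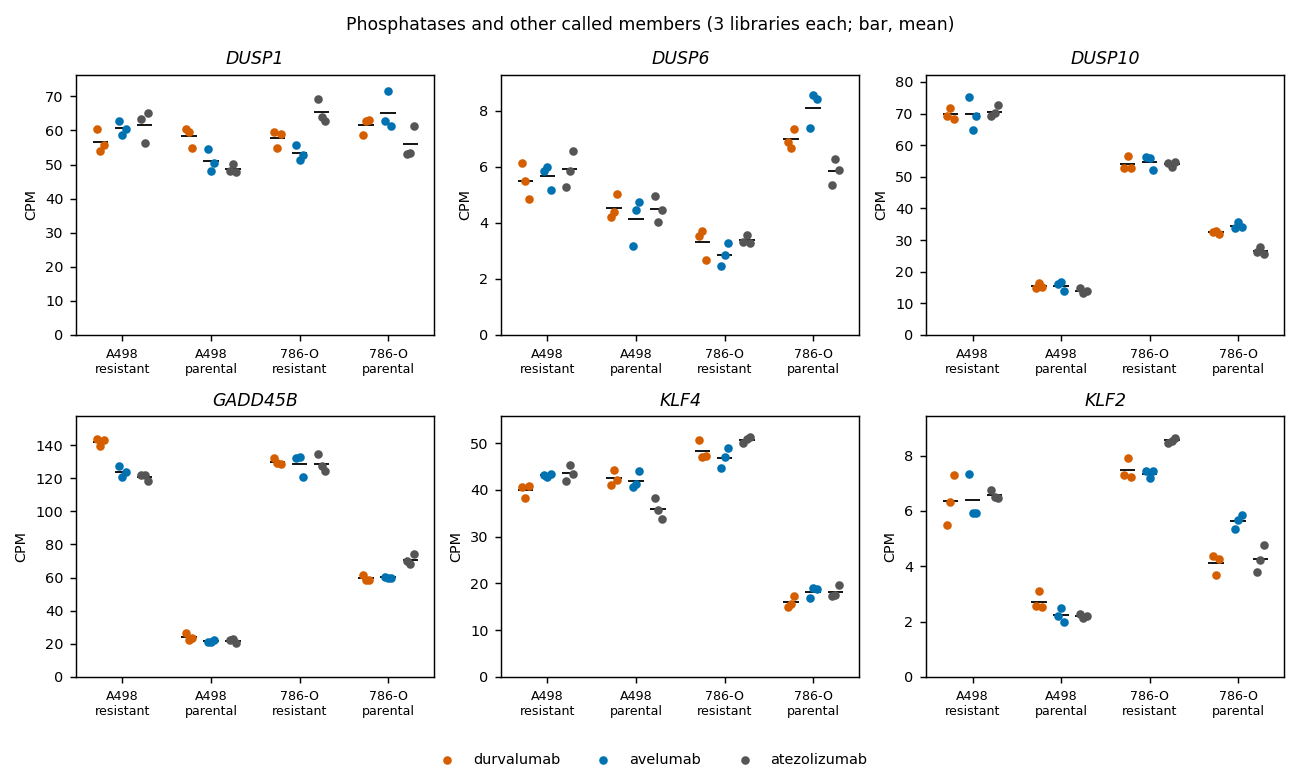
CPM of 3 MAP kinase phosphatases and of GADD45B, KLF4 and KLF2 in every library, by cell state and antibody, on axes from 0; points are libraries, bars are means of 3. In 786-O parental cells DUSP10 was lowest under atezolizumab (25.5 to 27.8 CPM) and GADD45B highest (68.2 to 74.1 CPM).

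Of the Sprouty and SPRED inhibitors, SPRY2 passed in 1 pair. It had 12.2, 13.7 and 11.8 CPM under avelumab in 786-O parental cells, against 10.7, 10.4 and 10.7 CPM under atezolizumab (0.24 ± 0.07, adjusted p = 0.0415). The call was lost without any 1 atezolizumab library, avelumab replicate 1 or 2 or durvalumab replicate 2 (adjusted p of 0.0518 to 0.286), in DESeq2 (adjusted p = 0.093) and in the fit over all 36 libraries (adjusted p = 0.114). SPRY4, SPRED1, SPRED2 and the ETS factors ETV4 and ETV5, which are among the most direct readouts of ERK output, passed in no pair. ETV5 in 786-O parental cells had 33.0, 41.7 and 36.5 CPM under avelumab, against 37.4, 35.9 and 36.4 CPM under atezolizumab.

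Counted by state and pair, the most members passed for avelumab minus atezolizumab in 786-O parental cells. For avelumab minus atezolizumab in 786-O parental cells 7 of the 38 tested members rose and 1 fell, 21.1%, against 4.34% of all genes called. For durvalumab minus atezolizumab there 1 rose and 1 fell (5.26%, all genes 1.82%). For durvalumab minus avelumab there none passed in edgeR, and 0% of all genes did. At an unadjusted p under 0.05 there were 11 of 38 members, against 1899 of 17577 genes, and DESeq2 called 1 member. In 786-O resistant cells 1 of 37 tested members rose and 3 fell for avelumab minus atezolizumab (10.8%, all genes 1.21%). In the same cells 1 fell for durvalumab minus avelumab (2.7%, all genes 0.387%). For durvalumab minus atezolizumab there none passed in edgeR, and 0% of all genes did. At an unadjusted p under 0.05 there were 14 of 37 members, against 2251 of 18886 genes, and DESeq2 called 1 member. In A498 parental cells 1 of 38 rose and 2 fell for avelumab minus atezolizumab (7.89%, all genes 3.39%). In the same cells 3 rose for durvalumab minus atezolizumab (7.89%, all genes 2.8%). For durvalumab minus avelumab there none passed in edgeR, and 0.0599% of all genes did. At an unadjusted p under 0.05 there were 8 of 38 members, against 1264 of 18372 genes, and DESeq2 called 0 members. In the libraries labelled A498 resistant 1 of 38 rose for durvalumab minus atezolizumab (2.63%, all genes 0.00571%). For durvalumab minus avelumab 1 rose and 1 fell in these libraries (5.26%, all genes 0.0171%). In these libraries the 2 shares of all genes come from only 1 and 3 called genes, which include the members themselves. For avelumab minus atezolizumab there none passed in edgeR, and 0% of all genes did. At an unadjusted p under 0.05 there were 3 of 38 members, against 619 of 17510 genes, and DESeq2 called 0 members. The median log2 change of the tested members lay between -0.11 and 0.06 over the 12 pairs, and that of all genes between -0.00459 and 0.00298. Antibody pairs within a state share libraries, so their counts are not independent of each other.

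Where no member passed, the 2 of lowest p were these. JUND and PHLDA1 in the libraries labelled A498 resistant changed by -0.12 ± 0.04 and -0.08 ± 0.04 for avelumab minus atezolizumab (adjusted p = 1.0 for both). JUNB and DUSP1 in A498 parental cells changed by 0.18 ± 0.04 (adjusted p = 0.0809) and 0.19 ± 0.05 (adjusted p = 0.151) for durvalumab minus avelumab. IER3, given above, and DUSP1 (-0.21 ± 0.05, adjusted p = 0.32) had the lowest p in 786-O resistant cells for durvalumab minus atezolizumab. KLF2 (-0.47 ± 0.10, adjusted p = 0.147) and PHLDA1 (-0.22 ± 0.06, adjusted p = 0.242) had it in 786-O parental cells for durvalumab minus avelumab.

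**Figure D3:**
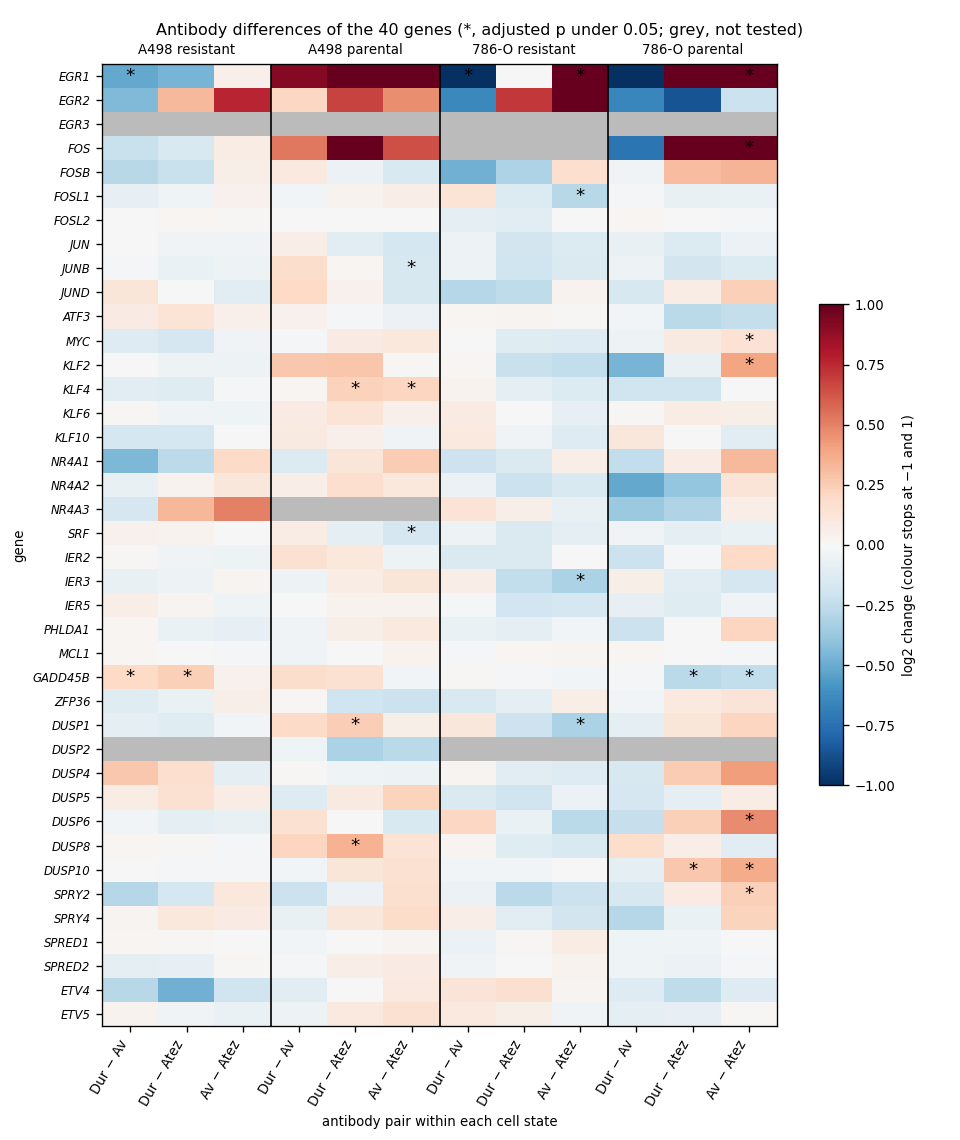
Log2 changes of the 40 genes (rows) for the 3 antibody pairs (columns) within each cell state as labelled, with colour stopping at -1 and 1; asterisks mark an adjusted p under 0.05 and grey marks members not tested. The marked cells are most frequent for avelumab minus atezolizumab in 786-O parental cells, where 8 members passed.

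Some library-wide measures moved with the antibody. In the libraries labelled A498 resistant, mitochondrially encoded genes took 1.71% to 1.86% of counts under durvalumab, against 1.87% to 2.1% under atezolizumab. GADD45B passed in that pair and also in durvalumab minus avelumab, where the shares overlapped (1.37% to 2.11% under avelumab). In 786-O resistant cells the mitochondrial share was 1.93% to 2.17% under avelumab, against 2.19% to 2.71% under atezolizumab, and the summed level of 4 fibroblast markers was 11 to 12.1 CPM under avelumab, against 10.3 to 10.9 CPM under atezolizumab. In A498 parental cells the mitochondrial share was 2.66% to 2.83% under avelumab and 2.46% to 2.63% under atezolizumab. The 4 fibroblast markers there summed to 59.2 to 61.7 CPM under durvalumab, 52.9 to 61.8 CPM under avelumab, and 50.5 to 51.1 CPM under atezolizumab, nearly all of it COL1A1, while DCN did not exceed 0.134 CPM. Summed leukocyte markers (6 genes) stayed between 0.342 and 2.19 CPM, and CD3E did not exceed 0.0391 CPM. The part of these shifts in the results above was not tested.

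Genes of the pathway outside the 40 are given from 4 lists. They hold 39 ERK cascade components, 13 growth factor ligands, 36 other early response and ERK output genes, and 13 stress kinase components. Of the cascade components, 1 passed in any of the 12 pairs: RPS6KA3, a kinase activated by ERK, for avelumab minus atezolizumab in A498 parental cells (1 of 39, against 3.39% of all genes; -0.13 ± 0.04, adjusted p = 0.0273). At an unadjusted p under 0.05 there were 9 of 39 cascade components in that pair, against 3081 of 18372 genes, and 10 of 39 for avelumab minus atezolizumab in 786-O resistant cells, against 2867 of 18886 genes. The other early response and ERK output genes, shortened here to output genes, held most of the calls. The list mixes both kinds, so a call in it is not by itself a reading of ERK output. Under avelumab relative to atezolizumab, 7 of 34 tested output genes fell in 786-O resistant cells and none rose (all genes 1.21%), with a median log2 change over the list of -0.12, against -0.003 over all genes. Those of lowest p were the cytokine IL6 (-0.52 ± 0.07, adjusted p = 0.000283), the NF-kappaB inhibitor TNFAIP3 (-0.28 ± 0.05, adjusted p = 0.00242), the urokinase receptor PLAUR (-0.28 ± 0.05, adjusted p = 0.00388) and the matricellular protein CCN1 (-0.23 ± 0.05, adjusted p = 0.0149). IL6 was higher under durvalumab than under avelumab there (0.31 ± 0.07, adjusted p = 0.0453). In 786-O parental cells 3 of 34 output genes rose and 4 fell under avelumab relative to atezolizumab (all genes 4.34%). They included the antiproliferative factor BTG2 (-0.38 ± 0.08, adjusted p = 0.00843), the ephrin receptor EPHA4 (0.27 ± 0.07, adjusted p = 0.0202) and the cyclin CCND1 (-0.12 ± 0.03, adjusted p = 0.0348). In A498 parental cells 5 of 35 output genes rose and 3 fell under durvalumab (all genes 2.8%), and 2 rose and 3 fell under avelumab (all genes 3.39%), each relative to atezolizumab. CCN2, a matricellular protein, had the lowest p in both (durvalumab minus atezolizumab 0.52 ± 0.07, adjusted p = 0.000235, and avelumab minus atezolizumab 0.50 ± 0.07, adjusted p = 0.000239). The ligand AREG, which activates the EGF receptor, rose in both as well (durvalumab minus atezolizumab 0.38 ± 0.10, adjusted p = 0.0298, and avelumab minus atezolizumab 0.38 ± 0.10, adjusted p = 0.0258). Of the stress kinase components, MAP2K7 (0.19 ± 0.04, adjusted p = 0.0112) and MAP2K6 (0.41 ± 0.11, adjusted p = 0.0402) rose under avelumab relative to atezolizumab in 786-O parental cells, and MAP3K1 rose in 786-O resistant cells (0.25 ± 0.06, adjusted p = 0.046).

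Resistant and parental libraries of a line differed for most members, as for most genes. In A498 as labelled 14 of 39 tested members were higher and 21 lower in resistant libraries, 89.7%, against 88.2% of all genes. In 786-O 14 of 38 were higher and 19 lower, 86.8%, against 83.8% of all genes. Both shares lie near those of all genes, and batch and resistance cannot be told apart, so the counts say nothing particular of these 40 genes. Levels are means ± SD over the 9 libraries of a state. Described for each line are the 5 highest and 5 lowest log2 changes among members that passed and had at least 5 CPM in the higher state, so less abundant members such as NR4A3, FOS and FOSB are left out even where their change was larger.

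EGR1 moved in opposite directions. It averaged 9.88 ± 1.59 CPM in libraries labelled A498 resistant and 3.00 ± 2.21 CPM in A498 parental libraries (1.87 ± 0.21, adjusted p = 1.68e-06), without overlap. It averaged 3.04 ± 1.87 CPM in 786-O resistant and 10.2 ± 7.95 CPM in 786-O parental libraries (-1.63 ± 0.24, adjusted p = 2.67e-05), with overlap. Fitted by antibody, the change varied in size. Under atezolizumab alone it was 3.27 in A498 as labelled (adjusted p = 9.11e-06) but -0.51 in 786-O (adjusted p = 0.377). Under durvalumab alone it was 0.46 in A498 as labelled (adjusted p = 0.2). Whether it differed between antibodies was not tested by itself in A498 as labelled. In 786-O that test, for avelumab against atezolizumab, did not pass and is given below.

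The members ETV4, SPRY4 and DUSP5 were highest in A498 parental libraries, but not all feedback members were. SPRY2 averaged 5.06 ± 0.45 CPM there, its lowest of the 4 states, against 9.59 to 11.5 CPM in the others. DUSP6 averaged 4.39 ± 0.56 CPM there, below 5.70 CPM in libraries labelled A498 resistant and 6.98 CPM in 786-O parental libraries. It was lower only in 786-O resistant libraries, at 3.19 CPM. ETV4 averaged 0.743 ± 0.194 CPM in libraries labelled A498 resistant and 18.9 ± 1.13 CPM in A498 parental libraries (-4.77 ± 0.08, adjusted p = 4.65e-44). In 786-O it averaged 1.62 ± 0.19 CPM in resistant and 3.41 ± 0.36 CPM in parental libraries. SPRY4 averaged 2.02 ± 0.33 CPM in libraries labelled A498 resistant and 12.9 ± 1.20 CPM in A498 parental libraries (-2.77 ± 0.07, adjusted p = 2.62e-34), against 2.35 ± 0.24 CPM in 786-O resistant and 2.00 ± 0.31 CPM in 786-O parental libraries. DUSP5, a nuclear phosphatase selective for ERK, averaged 12.9 ± 0.81 CPM in libraries labelled A498 resistant and 81.9 ± 7.76 CPM in A498 parental libraries (-2.75 ± 0.04, adjusted p = 3.15e-29), against 15.1 ± 1.09 CPM in 786-O resistant and 17.1 ± 1.41 CPM in 786-O parental libraries. For these 3 genes every A498 parental library lay above all 27 others. DUSP2, a phosphatase known from immune cells, held 4 counts over the 9 libraries labelled A498 resistant and 1123 over the 9 A498 parental libraries. Parental over resistant, by CPM of the summed counts, the ratio was 203, with an exact 95% counting interval of 79.1 to 747. This interval covers counting only, not the spread between libraries. In 786-O it held 6 counts in resistant and 12 in parental libraries. NR4A1, an orphan nuclear receptor, averaged 2.82 ± 0.49 CPM in libraries labelled A498 resistant and 11.2 ± 1.04 CPM in A498 parental libraries (-2.08 ± 0.06, adjusted p = 1.13e-32). ETV5 averaged 29.5 ± 1.76 CPM in libraries labelled A498 resistant and 72.2 ± 4.91 CPM in A498 parental libraries (-1.38 ± 0.03, adjusted p = 1.42e-30).

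Of the 14 members higher in the libraries labelled A498 resistant than in A498 parental, those with the largest changes above 5 CPM were GADD45B, DUSP10, EGR1, KLF6 and KLF2. GADD45B averaged 129 ± 10.3 CPM in libraries labelled A498 resistant and 22.5 ± 1.82 CPM in A498 parental libraries (2.43 ± 0.03, adjusted p = 2.92e-49). DUSP10 averaged 70.0 ± 2.97 CPM in libraries labelled A498 resistant and 15 ± 1.22 CPM in A498 parental libraries (2.14 ± 0.04, adjusted p = 1.48e-37). The tumour suppressor KLF6 averaged 151 ± 5.39 CPM in libraries labelled A498 resistant and 42.3 ± 2.25 CPM in A498 parental libraries (1.75 ± 0.03, adjusted p = 1.65e-45), and lay at 194 ± 7.43 CPM in 786-O resistant and 177 ± 7.62 CPM in 786-O parental libraries. KLF2 averaged 6.44 ± 0.62 CPM in libraries labelled A498 resistant and 2.38 ± 0.33 CPM in A498 parental libraries (1.35 ± 0.07, adjusted p = 8.76e-22).

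Of the 14 members higher in 786-O resistant than in 786-O parental libraries, those with the largest changes above 5 CPM were DUSP4, KLF4, ATF3, GADD45B and DUSP10. DUSP4, a nuclear phosphatase, averaged 9.22 ± 0.57 CPM in resistant and 2.96 ± 0.55 CPM in parental libraries (1.54 ± 0.06, adjusted p = 1.38e-20). KLF4 averaged 48.6 ± 2.29 CPM in resistant and 17.4 ± 1.51 CPM in parental libraries (1.37 ± 0.03, adjusted p = 1.26e-26). ATF3 averaged 30.6 ± 1.31 CPM in resistant and 11.9 ± 1.43 CPM in parental libraries (1.26 ± 0.04, adjusted p = 3.96e-23). For these 3 genes the states did not overlap. GADD45B changed by 0.92 ± 0.03 (adjusted p = 6.41e-25) and DUSP10 by 0.70 ± 0.03 (adjusted p = 3.36e-21).

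Of the 19 members lower in 786-O resistant than in 786-O parental libraries, those with the largest changes above 5 CPM were EGR1, DUSP6, PHLDA1, IER3 and SPRED1. DUSP6 averaged 3.19 ± 0.43 CPM in resistant and 6.98 ± 1.08 CPM in parental libraries (-1.23 ± 0.06, adjusted p = 7.47e-18). PHLDA1, a protein with a pleckstrin homology-like domain, averaged 71.2 ± 3.38 CPM in resistant and 152 ± 14.8 CPM in parental libraries (-1.20 ± 0.03, adjusted p = 7.75e-24). IER3 changed by -0.85 ± 0.03 (adjusted p = 7.27e-23) and SPRED1 by -0.80 ± 0.04 (adjusted p = 1.21e-16). The states did not overlap for DUSP6, PHLDA1, IER3 or SPRED1.

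**Figure D4:**
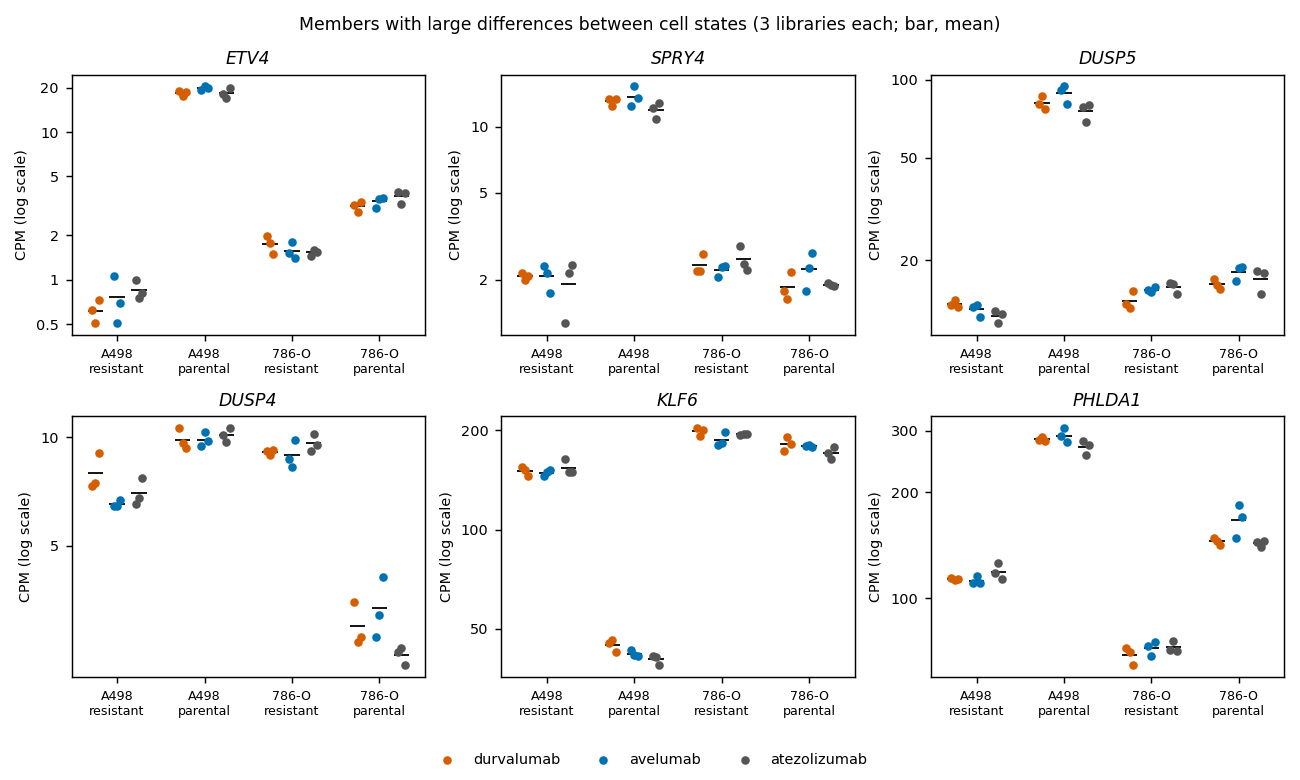
CPM of 6 members on log axes in every library, by cell state as labelled and antibody; points are libraries, bars are means of 3. ETV4, SPRY4 and DUSP5 were highest in A498 parental libraries, DUSP4 was lowest in 786-O parental libraries, and KLF6 was lowest in A498 parental libraries.

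**Figure D5:**
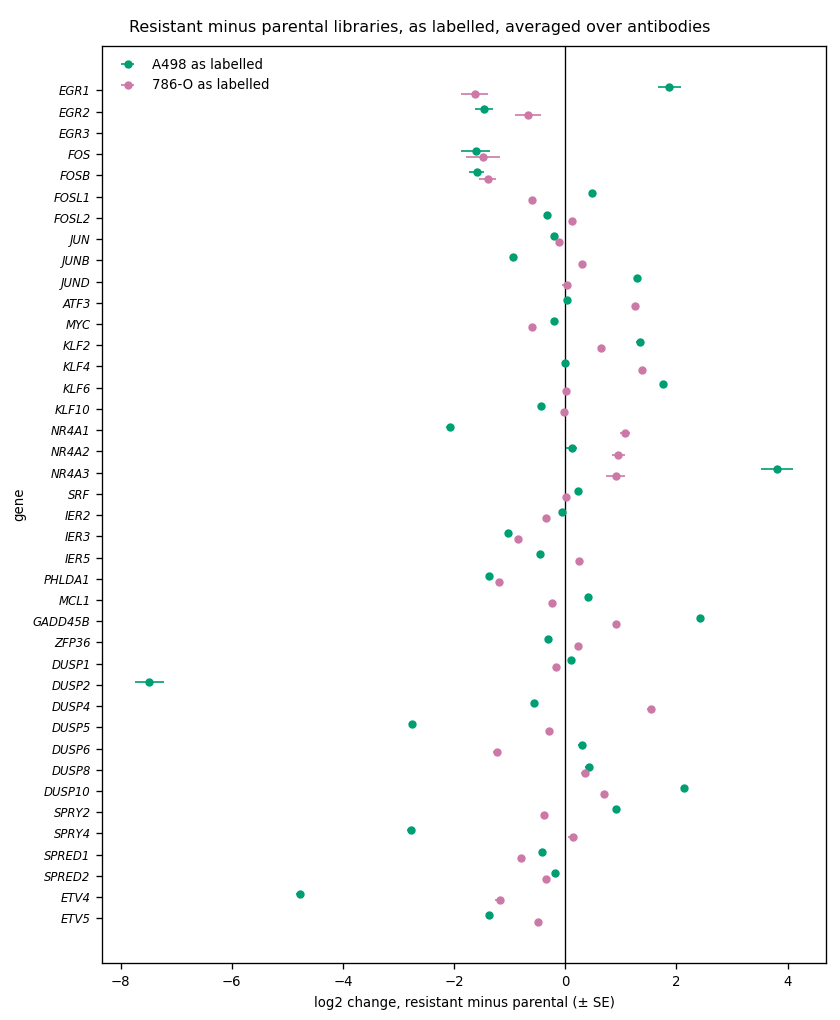
Log2 change of each member (rows) between resistant and parental libraries, averaged over the antibodies, in A498 as labelled and in 786-O; points are fitted changes, bars are ± SE, and members with no point were not tested in that line. EGR1 lies at 1.87 in A498 as labelled and at -1.63 in 786-O.

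Dependence of the antibody differences on cell state was tested in 1 fit over all 36 libraries. By the test with 6 degrees of freedom, 13 of 39 tested members passed, 33.3%, against 4.1% of all genes. The 3 of lowest p were GADD45B (adjusted p = 2.81e-05), KLF4 (adjusted p = 0.00101) and EGR1 (adjusted p = 0.0014). The others were DUSP1, MYC, IER2, KLF2, FOSL1, DUSP10, IER3, KLF10, DUSP6 and PHLDA1. The share of members is not a test of the list.

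Avelumab minus atezolizumab in 786-O resistant minus the same in 786-O parental cells passed for 8 of 39 members, 1 higher and 7 lower (all genes 2.66%). Those of lowest p were DUSP1 (-0.51 ± 0.09, adjusted p = 0.00169), DUSP10 (-0.35 ± 0.08, adjusted p = 0.00709) and KLF2 (-0.62 ± 0.13, adjusted p = 0.00709). For EGR1, which passed in both states, the difference was -1.37 ± 0.57 and did not pass (adjusted p = 0.206). Between the parental lines, 786-O minus A498, DUSP6 passed for avelumab minus atezolizumab (0.62 ± 0.16, adjusted p = 0.0421, all genes 1.07%). The DUSP6 call was lost in 8 of the fits that left out 1 library (adjusted p of 0.0524 to 0.201) and without the 9 libraries labelled A498 resistant (adjusted p = 0.058). The libraries behind those 8 fits were A498 parental atezolizumab replicates 1 and 3, A498 parental avelumab replicates 1 and 2, 786-O parental atezolizumab replicates 1 and 3 and 786-O parental avelumab replicates 2 and 3. GADD45B (-0.42 ± 0.07, adjusted p = 0.000958) and KLF4 (-0.44 ± 0.08, adjusted p = 0.00103) passed for durvalumab minus atezolizumab (all genes 0.679%). For EGR1 the same 2 differences were 1.52 ± 0.72 (adjusted p = 0.424) and -0.38 ± 0.66 (adjusted p = 0.955).

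The exons of 5 members overlap those of a gene on the other strand by at least 10% of their length, and the strand setting of the counting is not given in the sources used here, so their values are uncertain. DUSP6 shares 40.5% with AC024909.2, which had a median of 1.36 CPM over all libraries, IER2 30.8% with AC011446.2 (32.5 CPM), IER3 26.5% with IER3-AS1 (20.5 CPM), JUNB 14.2% with HOOK2 (41.9 CPM) and NR4A1 10.3% with AC025259.3 (0.799 CPM).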

How the data were processed

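The authors deposited raw read counts per Ensembl gene for 36 libraries in 1 table. Per the submitters' processing notes, the tools included featureCounts 1.6.3, HISAT2 2.1.0, Trimmomatic 0.36.6 and bcl2fastq 2.19.0; per the labels' protocols, libraries came from a stranded kit for polyadenylated RNA. Of 45478 identifiers, 45283 carried a symbol and 43799 were in GENCODE release 29 (GRCh38). Totals ran from 19994882 to 58122896 counts. CPM was computed from the deposited counts over each library's total.

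Counts were tested with edgeR 4.0.16 (R 4.3.3, limma 3.58.1): TMM normalization, a filter with a count minimum of 10 and a total minimum of 15, robust quasi-likelihood fits, and Benjamini-Hochberg adjustment over all genes tested, at 0.05. Antibodies were compared within a state (9 libraries), resistance within a line (18 libraries) and interactions over all 36. Values given as ± beside a log2 change are standard errors. Procedures were tested on simulated data. Alternatives were DESeq2 1.42.0, other filters and normalization, a replicate block, a fit over all libraries and leaving out each library.

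The 40 genes and the pathway lists were chosen with earlier results of these data known. All 40 were accounted for. Named with values were up to 5 called members in each direction per antibody pair by lowest p (the 2 of lowest p where none passed), the 5 highest and 5 lowest resistance changes among called members with at least 5 CPM in the higher state, the 3 of lowest p per interaction, and up to 4 listed pathway genes per comparison. The text gives some of the pathway genes the rule allows; others, among them those for resistance and interactions, are not reported here. FOS and SPRY2 in 786-O parental cells (sixth and seventh by p among the members that rose), members shown as examples of no call, and EGR2 were named beyond this rule and chosen after their values were seen. DUSP2 between resistant and parental libraries, below the limit of 5 CPM, was also named beyond this rule.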

Additional observations from a re-analysis of the deposited data

Results flagged for a closer look

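Antibody differences that depended on the cell state, each tested by its interaction in the fit over all 36 libraries (edgeR), are given here as values. With all antibodies and states together (6 degrees of freedom), the adjusted p was 2.81e-05 for GADD45B, 0.00101 for KLF4, 0.0014 for EGR1, 0.00141 for DUSP1, 0.00199 for MYC, 0.00439 for IER2 and 0.00534 for KLF2. It was 0.0112 for FOSL1, 0.0114 for DUSP10, 0.0161 for IER3, 0.0253 for KLF10, 0.0346 for DUSP6 and 0.0354 for PHLDA1.

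For avelumab minus atezolizumab in 786-O resistant minus 786-O parental cells, the log2 difference was -0.51 for DUSP1, -0.35 for DUSP10, -0.62 for KLF2, -0.26 for MYC, -0.73 for DUSP6, -0.43 for SPRY2, 0.24 for GADD45B and -0.53 for DUSP4. Leaving out single libraries ended some of these calls. The DUSP6 and KLF2 calls were lost without 786-O parental atezolizumab replicate 1 (adjusted p = 0.0509 for each). The SPRY2 call was lost without 786-O resistant atezolizumab replicate 1 or 3 or avelumab replicate 1, or 786-O parental atezolizumab replicate 1 or 2 or avelumab replicate 2 (adjusted p of 0.0529 to 0.107). The GADD45B call was lost without 786-O resistant atezolizumab replicate 2 or 3 or avelumab replicate 2, or 786-O parental atezolizumab replicate 1 or 3 or avelumab replicate 2 or 3 (adjusted p of 0.0635 to 0.106), and in a fit without the 9 libraries labelled A498 resistant (adjusted p = 0.0698). The DUSP4 call was lost without 786-O resistant atezolizumab replicate 2 or 3 or avelumab replicate 2, or any 786-O parental atezolizumab library or avelumab replicate 3 (adjusted p of 0.0523 to 0.207).

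Between the parental lines, 786-O minus A498, the log2 difference was 0.62 for DUSP6 for avelumab minus atezolizumab, and -0.42 for GADD45B and -0.44 for KLF4 for durvalumab minus atezolizumab.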

How the results depend on the processing

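No named value reversed. With settings other than leaving out a library, each named value was counted at every such setting. For antibody pairs, 128 of these counts kept direction and call and 14 lost the call. For interactions these numbers were 63 and 3, and for resistance 156 and 2. Leaving out 1 library ended more calls. Each named value was counted 3 times, at its lowest change, highest change and highest adjusted p over these fits. Of these counts, 44 for antibody pairs kept the call and 28 lost it. For interactions 22 kept it and 11 lost it, and for resistance all 60 kept it. A call lost without some library can still be counted as kept at another of these points. The numbers are therefore not numbers of calls that held. Counts of members called moved by over 1.5 times as follows, and the cause was not tested. With no filter they were 2 for durvalumab minus atezolizumab in the libraries labelled A498 resistant, 8 for avelumab minus atezolizumab in A498 parental, 3 for durvalumab minus avelumab in A498 parental, 3 for durvalumab minus atezolizumab and 2 for durvalumab minus avelumab in 786-O resistant, and 14, 6 and 3 for avelumab minus atezolizumab, durvalumab minus atezolizumab and durvalumab minus avelumab in 786-O parental cells. In the fit over all 36 libraries they were 0 and 0 for durvalumab minus atezolizumab and durvalumab minus avelumab in the libraries labelled A498 resistant, and 1 for durvalumab minus avelumab in 786-O parental cells. DESeq2 gave 1 for durvalumab minus atezolizumab in 786-O resistant and 1 for durvalumab minus avelumab in 786-O parental cells. For avelumab minus atezolizumab between the parental lines, DESeq2, upper quartile normalization, the strict filter and no filter gave 2 each, and 0 was left without the libraries labelled A498 resistant, an alternative added after seeing the data.

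Leaving out 1 library at a time gave 0 to 2 members for durvalumab minus atezolizumab and 0 to 4 for durvalumab minus avelumab in the libraries labelled A498 resistant. In A498 parental cells avelumab minus atezolizumab fell as low as 0 calls, durvalumab minus atezolizumab as low as 1, and the highest for durvalumab minus avelumab was 1. The highest was 2 for durvalumab minus avelumab in 786-O resistant cells, and 4 for durvalumab minus atezolizumab and 1 for durvalumab minus avelumab in 786-O parental cells. For avelumab minus atezolizumab the range was 3 to 9 in 786-O parental cells and 3 to 9 in 786-O resistant minus 786-O parental cells, and the range between the parental lines was 0 to 2.

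Same-numbered libraries did not deviate together: the correlation of their deviations had medians of -0.0343 to 0.0239 by state, so the numbers were not taken as pairs. A replicate block gave 1 call for durvalumab minus avelumab in the libraries labelled A498 resistant, 2 for durvalumab minus avelumab in 786-O resistant cells and 0 for avelumab minus atezolizumab between the parental lines. Low counts of FOS, EGR2, EGR3 and DUSP2 limit what can be seen for them.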
